A study of Homo sapiens with 10 samples.

Results

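The actin cytoskeleton and the focal adhesion plaque are described here through 54 genes picked for the function of their proteins, of 60554 genes in the files. They comprise 11 roles, namely actins, monomer-binding and severing proteins, capping protein, the Arp2/3 complex with cortactin, elongation factors, cross-linkers, tropomyosins, myosin light chains, plaque scaffolds and kinases, LIM and calponin-type actin binders, and a set made up of RHOA, RHOB, RHOC and RAC1. Of the 54 members, 51 had a level high enough to be tested, which means a protein-coding gene above an RPM (reads per 1000000) of 3 in at least 20% of the libraries. The other 3 were ILK (0.500 to 3.62 RPM in gCtl and 1.03 to 2.37 in the knockdown libraries), EVL (0.358 to 1.28 and 1.42 to 3.60) and PDLIM7 (0.721 to 2.5 and 0.802 to 1.79).

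The cells were Caco-2, a human colon carcinoma line that takes on features of enterocytes. All libraries came from cells of a stable monoclonal clone that expressed dCas9-KRAB, a Cas9 that binds DNA without cutting it, joined to a repressor domain. That clone received by lentivirus either an empty guide plasmid (gCtl, n = 5), guide g1 (n = 3) or guide g2 (n = 2), both guides being directed at the long non-coding RNA LHFPL3-AS2. All libraries thus share the repressor and the clone, and the labels do not say which libraries came from separate cultures, so p-values measure the spread between libraries, which may be technical.

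LHFPL3-AS2 itself was measured at 1.73, 0.840, 3.73, 1.73 and 3.12 RPM in gCtl, 3.07, 3.95 and 2.03 RPM in g1, and 2.16 and 6.01 RPM in g2. The 5 gCtl libraries averaged 2.23 ± 1.17 RPM (SD) and those labelled g1 or g2, also 5, averaged 3.45 ± 1.63 RPM (exact two-sided permutation test, p = 0.206). These levels rest on 4.39 to 44.0 counts per library, and the mean of the g1 and g2 libraries did not lie below that of gCtl. The word "knockdown" is used below only as that label for the g1 and g2 libraries together.

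The libraries held between 3838803 and 8730468 estimated counts, and the 54 members took 0.631 to 0.816% of them. Transcripts encoded by mitochondrial DNA made up 18.3 to 24.0% of the counts in gCtl, 19.0 to 20.6% in g1 and 16.8 and 12.0% in g2. Of 12 intestinal epithelial markers, 10 exceeded 1 RPM in every library, while CDX1 stayed below that level in every library. Their sum was 1949 to 2544 RPM in gCtl and 1817 to 2184 RPM in the knockdown libraries. The summed fibroblast list was 17.6 to 39.0 RPM in gCtl and 8.0 to 19.6 RPM in the knockdown libraries. In gCtl most of it was PDGFRA, at 11.4 to 29.8 RPM there against 1.15 to 10.1 RPM in the knockdown libraries. COL1A1 exceeded PDGFRA in g1 replicates 2 and 3 and in g2 replicates 1 and 2. The summed smooth muscle list was 23.9 to 30.8 RPM in gCtl and 38.0 to 47.9 RPM in the knockdown libraries, where MYH11 and TAGLN made up most of it and ACTA2 stayed at or below 0.947 RPM. Endothelial and leukocyte markers summed to 2.42 to 4.89 RPM in gCtl and 2.72 to 11.3 RPM in the knockdown libraries. The part of these marker levels in the results below was not tested. All libraries came from a clone of this carcinoma line, so the lists name markers and not cell types known to be present. In bulk libraries fewer cells that express a gene and less of its RNA per cell cannot be told apart.

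As background, actin monomers are held in reserve by profilin and thymosins, added to filament ends by formins and Ena/VASP proteins, and branched off existing filaments by the Arp2/3 complex. Capping protein stops growth at filament ends, cofilin severs filaments, and tropomyosins, alpha-actinins and myosin decide which filaments become contractile bundles. In focal adhesions talin, kindlins, vinculin, paxillin and zyxin couple these bundles to integrins, and in enterocytes the same proteins also serve the cell junctions and the terminal web. Many of these genes are known targets of the serum response factor SRF, which binds a DNA element called the CArG box.

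The CArG box, written as CC followed by 6 letters that are each A or T and then GG, reads alike on both strands. It was searched in the RefSeq promoters of build GRCh38.p14, each reaching from 250 bases before to 50 bases after an annotated start. Promoters were listed for 46 members, of which 5 (10.9%) held a box, against 1.29% of all 35116 promoters and 1.54% of the 8997 tested genes with an entry. The stretches around these 5 boxes are shown because the members that carry them did not move alike, with the box in capitals and the sequence 5′ to 3′ along the gene's own strand.
ACTG1: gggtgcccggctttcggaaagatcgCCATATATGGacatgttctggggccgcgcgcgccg
TES: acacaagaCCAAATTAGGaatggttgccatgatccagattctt
TPM4: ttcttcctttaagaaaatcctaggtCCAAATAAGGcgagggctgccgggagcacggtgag
ACTN1: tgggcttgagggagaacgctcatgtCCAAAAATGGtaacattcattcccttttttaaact
FLNA: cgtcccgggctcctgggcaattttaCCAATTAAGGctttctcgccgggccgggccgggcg
These lie at chr17:81512859-81512918 (minus strand), chr7:116222703-116222745 (plus), chr19:16067340-16067399 (plus), chr14:68977703-68977762 (minus) and chrX:154374694-154374753 (minus), in that order. The box began 94 bases before the start in ACTG1 and FLNA, 173 in TPM4, 171 in ACTN1 and 242 in TES. TES has 2 listed starts, TPM4 3 and ACTN1 4, and the box lay before 1 of them in each. In the comparison of knockdown with gCtl the log2 fold change was -0.95 for ACTG1, 0.68 for TES, 0.58 for TPM4, 0.24 for ACTN1 and 0.58 for FLNA, so the carriers of the box had values on both sides of 0. A match of letters is a description, and binding was not measured here.

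Levels below are CPM (counts per 1000000 on the scale of edgeR's TMM normalization), listed in the order of the replicate numbers, which only name the libraries. A gene is called when its adjusted p (edgeR quasi-likelihood test, Benjamini-Hochberg over 11640 genes) is at most 0.05 and its fold change at least 1.5. In the comparison of the 5 knockdown with the 5 gCtl libraries, 8 of the 51 tested members (15.7%) were called lower and 7 (13.7%) higher. Over all 11640 genes 11.0% were called lower and 8.14% higher. The 8 that fell were ACTG1, PXN, ZYX, ARPC1A, ARPC1B, ARPC3, RHOA and TAGLN2, and the 7 that rose were VCL, TES, ACTN4, VASP, ACTR2, TPM1 and MYL9. The median log2 fold change of the members was 0.03, against 0.02 over all genes, whereas the median size of the change without its sign was 0.48 in the members and 0.35 over all genes. The groups did not overlap at all for 5 members that were lower (9.80%, against 8.33% of all genes), namely ARPC1A, ARPC1B, CTTN, CAPZB and TAGLN2. They did not overlap for 6 that were higher (11.8%, against 7.13% of all genes), namely VCL, ACTN4, VASP, TPM1, TPM3 and TPM4. With library totals in place of TMM, which lowers the median of all genes to -0.07, 11 members were called lower and 6 higher, against 13.4 and 5.89% of all genes. Limma on log2(RPM + 1) called 11 lower and 4 higher, against 13.9 and 5.42% of all genes, so the shift toward lower calls was shared by all genes.

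**Figure D1:**
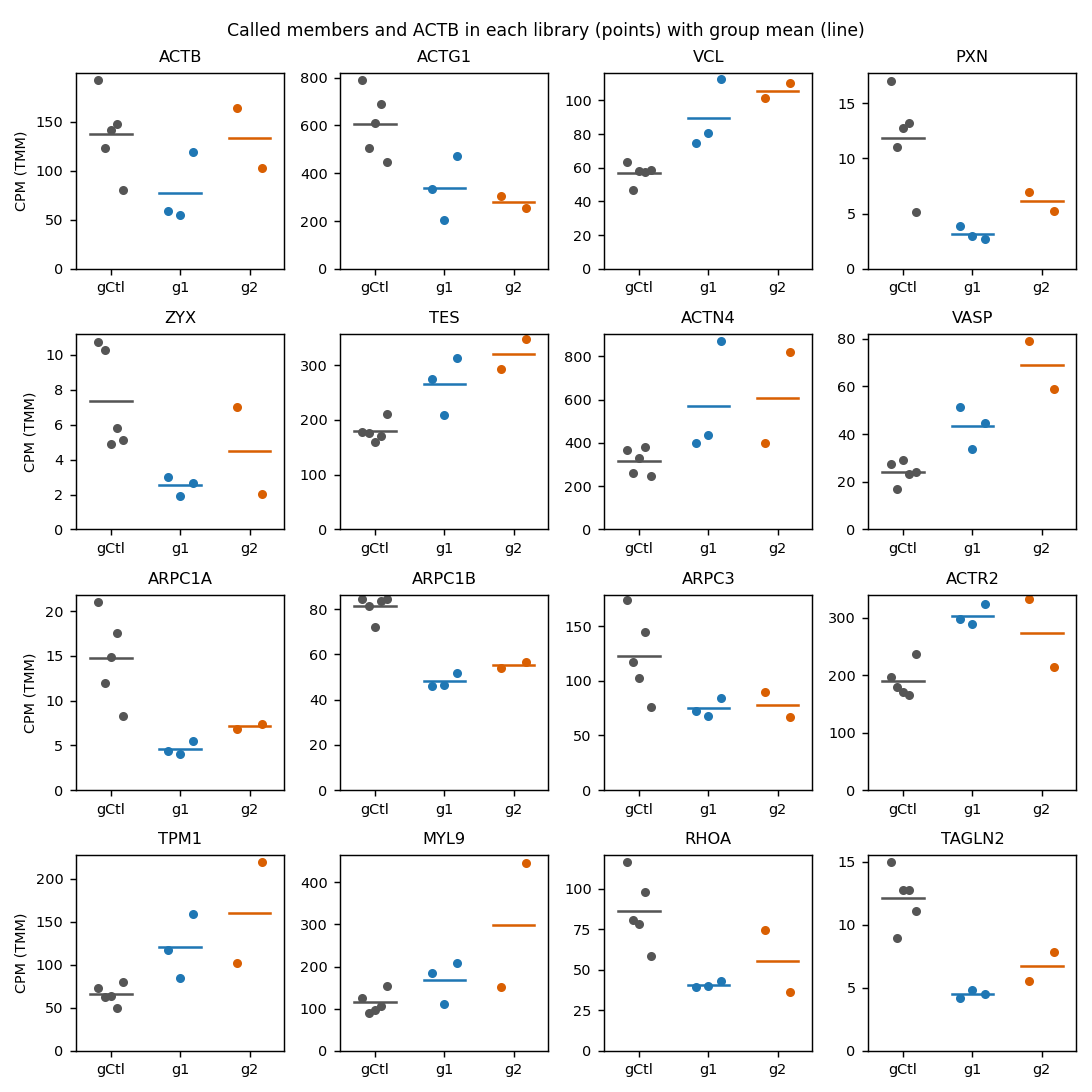
CPM (TMM scale, linear axis from 0) of the 15 members called in the comparison of knockdown with gCtl and of ACTB, for every library (points) with the mean of each group (line). In the ARPC1B panel the gCtl libraries sit between 72.0 and 84.5 and the others between 45.8 and 56.4, while in the ACTB panel the groups overlap.

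Of the 2 cytoplasmic actins of non-muscle cells, gamma-actin fell and beta-actin was not called in the pooled comparison. ACTG1, which encodes gamma-actin (chromosome 17, 81509971 to 81523847, GRCh38, minus strand), stood at 789, 504, 609, 689 and 448 CPM in gCtl, 335, 203 and 474 in g1, and 306 and 255 in g2. Only g1 replicate 3 reached into the gCtl range. Its mean went from 608 ± 138 to 315 ± 102 CPM (SD, n = 5 each), a 1.93-fold fall (log2 -0.95 ± 0.21 SE, adjusted p = 0.00562, edgeR). ACTB, which encodes beta-actin (chromosome 7, 5527147 to 5563784, minus strand), stood at 193, 124, 142, 147 and 80.7 CPM in gCtl, 59.3, 54.6 and 119 in g1, and 164 and 103 in g2. Its log2 difference was -0.45 ± 0.28 (adjusted p = 0.249, edgeR), and by guide it was -0.81 ± 0.28 in g1 (adjusted p = 0.0512) and -0.04 ± 0.31 in g2 (adjusted p = 0.943). Low values were those of gCtl replicate 5 and g1 replicates 1 and 2, and g2 replicate 1 was as high as most controls. With g1, ACTB was called lower under DESeq2 or its size factors, library totals, limma, no filter on level, or a fit of g1 and gCtl alone. ACTB was also called lower with g1 when gCtl replicate 5 or g1 replicate 3 was left out, among other libraries.

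None of the 4 genes for monomer binding and severing was called in the pooled comparison by edgeR (1 had an unadjusted p under 0.05) or DESeq2, while limma called PFN1. Their median log2 difference of g2 from g1 was 1.29, against 0.20 over the 51 members. CFL1, which encodes the severing protein cofilin (chromosome 11, 65823022 to 65862026), stood at 540.3, 416, 418, 494 and 411 CPM in gCtl, 449, 397 and 522 in g1, and 657 and 893 in g2. Both g2 libraries exceeded every other library. Its log2 fold change against gCtl was 0.00 ± 0.15 in g1 and 0.77 ± 0.17 in g2, and the difference of g2 from g1 was 0.77 ± 0.19 (adjusted p = 0.0305, edgeR). That difference was not called without any 1 of gCtl replicate 4, g1 replicates 1 and 2, and g2 replicate 2, nor with library totals, limma, a fit on these 2 groups alone or a test against a fold of 1.5. PFN1, which encodes profilin (chromosome 17, 4945652 to 4949061), stood at 34.0, 12.1, 14.6, 17.8 and 3.69 CPM in gCtl, 2.17, 1.69 and 3.29 in g1, and 16.5 and 5.96 in g2. The g1 libraries were the lowest 3, and gCtl replicate 5 came next. In g1 the fall was 6.53-fold (log2 -2.71 ± 0.57, adjusted p = 0.00429), while the pooled value was -1.46 ± 0.57 (adjusted p = 0.0733) and g2 gave -0.54 ± 0.55. Reads of PFN1 are shared with its pseudogenes, which held 32.1% of the sum of both, and PFN1 was called lower in the pooled comparison when their counts were added. TMSB4X, a thymosin that sequesters monomers, ranged from 4.93 to 30.2 CPM in gCtl, 2.95 to 9.62 in g1 and 13.2 to 20.3 in g2, with gCtl replicate 5 again the lowest control. It fell in g1 (log2 -1.59 ± 0.48, adjusted p = 0.0281) and gave -0.13 ± 0.50 in g2. TMSB10, a second thymosin, gave -0.45 ± 0.29 in g1 and 0.67 ± 0.32 in g2, and was called with neither.

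Capping protein, a dimer of an alpha and the beta subunit, had no called gene of 3 (0 by edgeR, where CAPZB alone had an unadjusted p under 0.05, 0 by DESeq2 and 0 by limma). CAPZB, the beta subunit, was lower in every knockdown library (70.7 to 90.7 CPM) than in every gCtl library (95.2 to 148 CPM), with a log2 difference of -0.48 ± 0.16 (adjusted p = 0.0356) that stayed short of the fold required. The alpha subunits gave -0.12 ± 0.19 (CAPZA1) and -0.07 ± 0.15 (CAPZA2).

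Genes for subunits of the Arp2/3 complex, which starts branches on filaments, moved in opposite directions. ARPC1A, ARPC1B and ARPC3 fell and ACTR2 rose. ARPC1A and ARPC1B encode alternative forms of the same subunit and are neighbours on the plus strand of chromosome 7 (99325910 to 99366262 and 99374249 to 99394816). ARPC1B stood at 84.5, 81.5, 72.0, 83.8 and 84.4 CPM in gCtl, 45.8, 46.6 and 51.6 in g1, and 54.0 and 56.4 in g2. The gap between the groups was wide next to the spread within them, and the mean went from 81.2 ± 5.29 to 50.9 ± 4.59 CPM (log2 -0.67 ± 0.12, adjusted p = 0.00123). ARPC1A stood at 21.0, 11.9, 14.8, 17.6 and 8.27 CPM in gCtl, 4.33, 4.01 and 5.48 in g1, and 6.81 and 7.41 in g2. All knockdown libraries were below all gCtl libraries, with gCtl replicate 5 close to g2, and the fold was 2.59 (log2 -1.37 ± 0.27, adjusted p = 0.00256). In the pooled comparison ARPC1A was the only member called lower when the test was set against a fold of 1.5, a test that called 2.84% of all genes lower and 1.36% higher.

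ARPC3 (chromosome 12, 110434825 to 110450422), a further small subunit, stood at 174, 117, 102, 145 and 76.3 CPM in gCtl, 72.2, 67.9 and 84.3 in g1, and 89.8 and 66.6 in g2. The value of gCtl replicate 5 was inside the knockdown range, and the log2 fold change was -0.69 ± 0.19 (adjusted p = 0.0175), a call that was lost without gCtl replicate 1 or gCtl replicate 4. ACTR2, which encodes the actin-related protein Arp2 (chromosome 2, 65227753 to 65271253), stood at 197, 179, 171, 166 and 236 CPM in gCtl, 298, 289 and 323 in g1, and 332 and 215 in g2. The g1 libraries and g2 replicate 1 exceeded every control, and the rise was 1.53-fold (log2 0.62 ± 0.15, adjusted p = 0.00843). This fold is close to the minimum of 1.5, and ACTR2 was not called when any 1 of gCtl replicate 3, gCtl replicate 4, g1 replicate 3 or g2 replicate 1 was left out, nor with library totals or limma.

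The other subunits gave smaller values. ACTR3, which encodes Arp3, had a log2 fold change of 0.51 ± 0.15 (adjusted p = 0.0233), and ARPC2 one of 0.49 ± 0.14 (adjusted p = 0.0186), both under the fold required. ACTR3 was called higher with g2 (0.73 ± 0.17), but not under library totals or limma. ARPC4 gave 0.01 ± 0.16 and ARPC5 gave -0.10 ± 0.14, neither with an adjusted p at most 0.05. CTTN encodes cortactin, which binds and stabilizes Arp2/3 branches. It was lower in every knockdown library (95.5 to 126 CPM) than in every control (146 to 189 CPM), with a log2 difference of -0.53 ± 0.13 (adjusted p = 0.0102), again short of the fold.

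**Figure D2:**
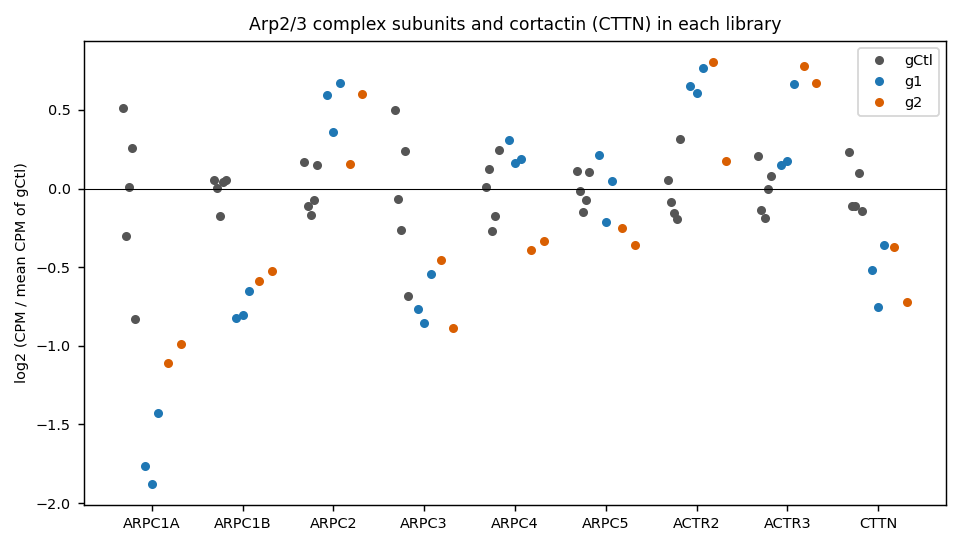
Log2 of CPM over the mean CPM of gCtl for the 8 genes of the Arp2/3 complex and for CTTN, with 1 point for each library of gCtl (grey), g1 (blue) and g2 (orange). Points of g1 and g2 lie below 0 for ARPC1A, ARPC1B, ARPC3 and CTTN and above 0 for ACTR2 and ACTR3.

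Among the elongation factors, VASP rose and the others were not called. VASP, which protects growing filament ends from capping (chromosome 19, 45506579 to 45526983), stood at 27.2, 17.1, 29.0, 23.3 and 23.9 CPM in gCtl, 51.5, 33.7 and 44.4 in g1, and 78.9 and 58.7 in g2. Every g1 library exceeded every control and every g2 library exceeded every g1 library. The mean went from 24.1 ± 4.56 to 53.5 ± 16.9 CPM (log2 1.15 ± 0.21, adjusted p = 0.00161), and VASP was the only member called higher in the pooled comparison when tested against a fold of 1.5. By guide the values were 0.85 ± 0.19 and 1.51 ± 0.20, with a difference of 0.67 ± 0.23 that was not called (adjusted p = 0.103). Of the VASP counts, 7.01% lay on transcripts annotated as protein-coding and 84.0% on VASP-003, which is annotated as a target of nonsense-mediated decay and ends 41 bases short of the coding 3′ end. With the coding transcripts alone, which held 3.45 to 28.0 counts per library, the log2 difference was -0.70 ± 0.55. ENAH, a second Ena/VASP protein, gave 0.14 ± 0.12, and the formin DIAPH1 gave 0.17 ± 0.12.

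Of the 3 cross-linkers, ACTN4 rose. It encodes alpha-actinin-4 (chromosome 19, 38647649 to 38731583) and stood at 369, 263, 328, 379 and 248 CPM in gCtl, 399, 435 and 872 in g1, and 397 and 818 in g2. The values of g1 replicate 3 and g2 replicate 2 were far above the rest, while the lowest knockdown library was only just above the highest control. The log2 fold change was 0.88 ± 0.23 (adjusted p = 0.0143). ACTN1, which encodes alpha-actinin-1, gave 0.24 ± 0.12 (adjusted p = 0.161). FLNA, which encodes filamin A, gave 0.58 ± 0.28 in the pooled comparison (adjusted p = 0.147), 0.24 ± 0.28 with g1, and was called higher with g2 (0.99 ± 0.31, adjusted p = 0.0275). Its g2 libraries stood at 46.8 and 43.8 CPM, above the gCtl range of 19.5 to 28.3 CPM, while its g1 libraries spread from 11.0 to 41.4 CPM on both sides of it. The g2 call was lost without any 1 of gCtl replicates 1 to 3 and g2 replicates 1 and 2. FLNA had 2.44% of its counts on protein-coding transcripts.

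The tropomyosins, coiled-coil proteins that line filaments, split into 3 genes with an adjusted p at most 0.05 in the higher direction (TPM1, TPM3 and TPM4) and TPM2, which was not called at -0.65 ± 0.32. TPM1 (chromosome 15, 63042632 to 63071915) stood at 72.5, 62.2, 64.2, 49.3 and 79.5 CPM in gCtl, 117, 84.4 and 159 in g1, and 101 and 219 in g2. All knockdown libraries were above all controls, with a mean of 136 ± 53.9 against 65.6 ± 11.4 CPM (log2 1.06 ± 0.22, adjusted p = 0.00421). TPM3 ranged from 648 to 876 CPM in gCtl and from 897 to 1159 CPM in the knockdown libraries (log2 0.40 ± 0.13, adjusted p = 0.0365). TPM4 ranged from 102 to 126 and from 129 to 220.2 CPM (0.58 ± 0.16, adjusted p = 0.0146). Both stayed under the fold required in the pooled comparison, and TPM4 was called higher with g2 (0.64 ± 0.19, adjusted p = 0.0234). Under library totals or limma, TPM4 was not called with g2. The estimated split of TPM1 among transcripts also differed between the groups. TPM1-029, a transcript of 573 bases annotated as a target of nonsense-mediated decay, held 14.4 to 31.7% of the TPM1 counts in gCtl and 37.0 to 51.1% in the knockdown libraries, so the groups did not overlap. Its end lies 9317 bases before the last coding 3′ end, and the split was not tested. Among the members, the transcript with the most counts also separated the groups in ZYX, ARPC1B and ARPC3. For ARPC1B it held 91.7 to 96.8% in gCtl and 74.9 to 90.7% in the knockdown libraries. For ARPC3 it held 96.9 to 98.8% and 93.6 to 96.4%. The share of all genes with such a separation is not given here, so the splits are not read as particular to these members.

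Of the myosin light chains, MYL9 rose. It encodes a regulatory light chain typical of contractile cells (chromosome 20, 36541484 to 36551447) and stood at 125, 90.9, 97.3, 106 and 154 CPM in gCtl, 185, 111 and 207 in g1, and 151 and 447 in g2. The value of g2 replicate 2 was above every other by a wide margin, and g1 replicate 2 and g2 replicate 1 lay within the control range. The log2 fold change was 0.94 ± 0.29 (adjusted p = 0.0302), and MYL9 was not called without g2 replicate 2, nor without any 1 of gCtl replicates 1 to 4, nor with limma. MYL6 gave -0.15 ± 0.15, MYL12A -0.05 ± 0.21 and MYL12B -0.09 ± 0.20, and none of these 3 was called.

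Among RHOA, RHOB, RHOC and RAC1, RHOA fell. RHOA (chromosome 3, 49359145 to 49412998), which promotes stress fibres and contraction, stood at 117, 81.0, 78.3, 98.2 and 58.2 CPM in gCtl, 39.3, 39.9 and 43.4 in g1, and 74.6 and 36.5 in g2. All g1 libraries and g2 replicate 2 were below every control, while g2 replicate 1 was inside their range. The fall was 1.85-fold (log2 -0.89 ± 0.21, adjusted p = 0.00843), and -1.08 ± 0.23 in g1 against -0.64 ± 0.26 in g2 (adjusted p = 0.0840). RHOB was called higher with g1 (1.46 ± 0.46, adjusted p = 0.0339), but its g1 libraries stood at 3.5, 4.85 and 19.7 CPM against 2.17 to 5.0 CPM in gCtl, so that g1 replicate 3 alone was high. RHOB was not called with g1 without that library, nor without any 1 of gCtl replicates 2 to 5. RHOC gave -0.21 ± 0.30 and RAC1, which promotes lamellipodia, 0.07 ± 0.15 in the pooled comparison.

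In the focal adhesion plaque, PXN and ZYX fell while VCL and TES rose. VCL encodes vinculin, which links talin to actin (chromosome 10, 73995193 to 74121363), and stood at 63.2, 46.8, 57.9, 57.5 and 58.9 CPM in gCtl, 74.5, 80.4 and 113 in g1, and 101 and 110.0 in g2. All knockdown libraries exceeded all controls, with means of 95.8 ± 17.4 and 56.9 ± 6.07 CPM (log2 0.75 ± 0.15, adjusted p = 0.00241). TES encodes testin, a LIM protein of the plaque (chromosome 7, 116210493 to 116258783), and stood at 178, 177, 159.9, 170.4 and 211 CPM in gCtl, 275, 209 and 312 in g1, and 293 and 348 in g2. Only g1 replicate 2 fell below the highest control. The log2 fold change was 0.68 ± 0.15 (adjusted p = 0.00429). Of the TES counts 76.2% lay on a transcript that ends 1115 bases before the coding 3′ end, and with coding transcripts alone the value was 0.52 ± 0.20 and not called. TES was not called with limma either.

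PXN encodes paxillin, the adaptor to which kinases bind in the plaque (chromosome 12, 120210439 to 120265771), and stood at 17, 11.0, 12.7, 13.2 and 5.10 CPM in gCtl, 3.83, 2.95 and 2.68 in g1, and 6.99 and 5.23 in g2. The g1 libraries were below every control, whereas gCtl replicate 5 was below both g2 libraries. The fall was 2.71-fold (log2 -1.44 ± 0.33, adjusted p = 0.00652). ZYX encodes zyxin, which marks plaques under tension (chromosome 7, 143381080 to 143391111), and stood at 10.7, 10.3, 4.88, 5.78 and 5.10 CPM in gCtl, 3.0, 1.90 and 2.68 in g1, and 6.99 and 2.04 in g2. The controls fell into a high pair and a low trio, and g2 replicate 1 lay above that trio. The log2 fold change was -1.14 ± 0.38 (adjusted p = 0.0394, edgeR). The call was lost when any 1 of 7 libraries was left out, namely gCtl replicates 1, 2 and 4, g1 replicates 1 to 3 and g2 replicate 2. The estimated split of ZYX among transcripts differed too. ZYX-006, a protein-coding transcript, held 62.5 to 100% of the ZYX counts in gCtl and 0 to 28.4% in the knockdown libraries. That split rests on 9 to 56 counts per library and was not tested, and the share of all genes with such a separation is not given here.

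The other 7 tested plaque genes were not called in the pooled comparison. TLN1, which encodes talin, gave 0.43 ± 0.16 (adjusted p = 0.0548, edgeR) and was called higher with g1 (0.59 ± 0.15). That fold of 1.505 is just past the minimum, and the call was lost with DESeq2, library totals, limma and genes of all biotypes. It was also lost without any 1 of gCtl replicates 3 and 4, g1 replicates 1 and 3, and g2 replicates 1 and 2. PTK2, which encodes focal adhesion kinase, and LIMS1, a partner of integrin-linked kinase, were called higher with g2 (0.62 ± 0.16 and 0.62 ± 0.20), and BCAR1, a scaffold that the kinase acts on, was called lower with g2 (-0.78 ± 0.24). PTK2 stood at 77.6 and 65.6 CPM in g2, above the gCtl range of 40.8 to 54.9, and BCAR1 at 33.7 and 17.9 CPM, below the gCtl range of 38.7 to 51.2. LIMS1 stood at 50.7 and 81.3 CPM in g2 against 32.6 to 54.0 in gCtl, so g2 replicate 1 was inside the control range. The LIMS1 call was lost without any 1 of gCtl replicates 1 and 3 and g2 replicate 2, and in a fit of g2 and gCtl alone. The PTK2 call was lost without gCtl replicate 3 or g2 replicate 1, and the BCAR1 call without gCtl replicate 4 or g2 replicate 2. Neither PTK2 nor LIMS1 was called with g2 under library totals, limma or genes of all biotypes. PTK2 was also not called with g2 on protein-coding transcripts alone. The kindlins gave 0.19 ± 0.13 (FERMT1) and 0.35 ± 0.19 (FERMT2), and PARVA, which encodes alpha-parvin, gave -0.39 ± 0.25.

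Of the LIM and calponin-type binders, TAGLN2 fell. It encodes transgelin-2, a small filament-binding protein (chromosome 1, 159918107 to 159925732), and stood at 15.0, 9.0, 12.7, 12.8 and 11.1 CPM in gCtl, 4.17, 4.85 and 4.51 in g1, and 5.56 and 7.85 in g2. All knockdown libraries were below all controls, and the fold was 2.23 (log2 -1.16 ± 0.23, adjusted p = 0.00301). PDLIM1, which binds alpha-actinin, gave -0.53 ± 0.17 in the pooled comparison (adjusted p = 0.0358), short of the fold, and was called lower with g2 (-0.73 ± 0.22). LASP1 gave 0.04 ± 0.15 and CSRP1 0.03 ± 0.30, and neither was called.

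Each guide was also compared with the same 5 gCtl libraries, so the guides' values are not independent of each other. With g1, 10 members were called lower (19.6%, against 9.95% of all genes) and 7 higher (13.7%, against 6.81%). With g2, 5 were called lower (9.80%, against 13.0%) and 12 higher (23.5%, against 10.7%). The g1 calls were ACTG1, PXN, ZYX, PFN1, TMSB4X, ARPC1A, ARPC1B, ARPC3, RHOA and TAGLN2 lower, and VCL, TLN1, ACTN4, VASP, ACTR2, TPM1 and RHOB higher. The g2 calls were ACTG1, BCAR1, ARPC1A, TAGLN2 and PDLIM1 lower, and VCL, LIMS1, PTK2, TES, ACTN4, FLNA, VASP, CFL1, ACTR3, TPM1, TPM4 and MYL9 higher. Of these higher calls, ACTN4, ACTR3, LIMS1, PTK2 and TPM4 were lost with library totals and with limma, and FLNA with limma. For the members named with both guides the log2 fold changes with g1 and g2 were -0.85 and -1.12 for ACTG1, -1.64 and -1.03 for ARPC1A, and -1.42 and -0.84 for TAGLN2. They were 0.65 and 0.90 for VCL, 0.84 and 0.94 for ACTN4, 0.85 and 1.51 for VASP, and 0.88 and 1.29 for TPM1.

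**Figure D3:**
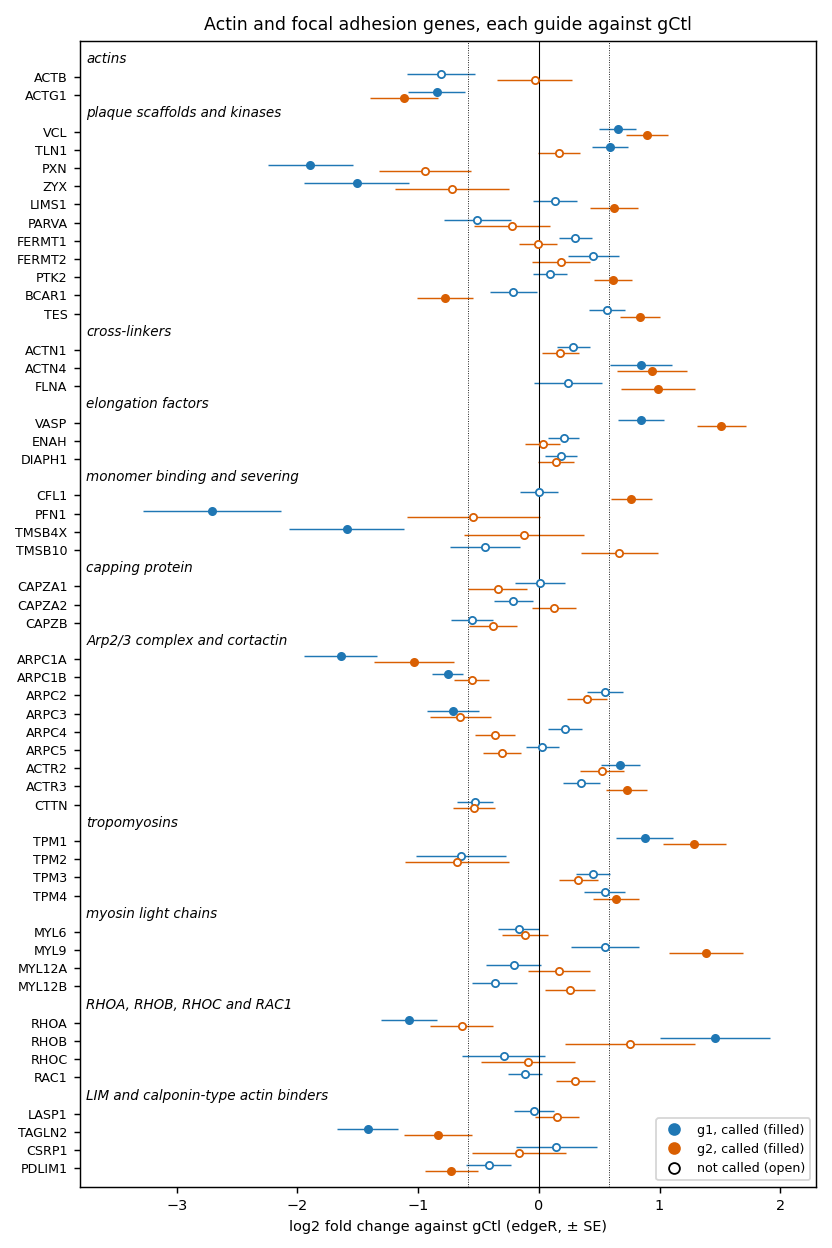
Log2 fold change of g1 (blue) and g2 (orange) against gCtl for the 51 tested members, grouped by role, with bars of ± 1 SE from edgeR. Filled points are called, open points are not, and dotted lines mark a fold change of 1.5. PFN1 has the lowest value, at -2.71 with g1, and VASP the highest of g2, at 1.51.

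Between the guides, 1 member was called higher in g2 than in g1 (CFL1, 1.96%, against 1.56% of all genes) and none lower (against 3.42% of all genes). DESeq2 called none lower and limma called 1 lower, against 543 and 660 of all 11640 genes. Without adjustment, 3 members had a p under 0.05 (edgeR) in the lower direction and 13 in the higher. The share of all genes under that unadjusted limit is not given here. These unadjusted counts are therefore not read as a shift of the members. The counts with g2 depended on the scale, as did those of all genes. With library totals, which place the median of all genes at -0.16, 10 members were called lower and 7 higher in g2 (against 17.7 and 6.44% of all genes), and with limma 9 and 6 (against 18.2 and 5.67%). The library with the lowest mitochondrial share (12.0%) was g2 replicate 2, and without it the counts for g2 were 0 lower and 6 higher (against 7.42 and 5.54% of all genes), the remaining g2 library being assumed to vary like the other groups. With g1, leaving out g1 replicate 3 changed the counts to 13 lower and 2 higher (against 6.58 and 4.21% of all genes), and limma gave 11 and 3 (against 10.9 and 5.29%). When each of the 10 libraries was left out in turn, the g1 calls that held throughout were PXN, PFN1, ARPC1A, ARPC1B, RHOA and TAGLN2 lower and VASP and ACTR2 higher. The g2 calls that held throughout were VCL, TES, VASP and ACTR3 higher, and none lower.

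Among the controls, gCtl replicates 5 and 1 lay apart in opposite directions for the members called lower. Replicate 5 was the lowest control for 5 of the 8 members called lower, with a median log2 deviation of -0.58 from the other controls, against 0.30 for the 7 members called higher. For both lists that is the direction in which the knockdown libraries differed from gCtl. Without it, 10 members were called lower and 8 higher (against 12.2 and 8.39% of all genes), with PDLIM1, PFN1 and TPM4 added to the 15 calls and none lost. For gCtl replicate 1 the median log2 deviation was 0.63 for the members called lower and 0.20 for those called higher, and without it ARPC3, ZYX and MYL9 were no longer called and TPM4 was added.

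The split of counts within protein families was then compared. Of 20 shares in 10 families, none had an adjusted p at most 0.05 (exact two-sided permutation test of 5 against 5 libraries, Benjamini-Hochberg over 20), the smallest being 0.0635, while 11 had an unadjusted p under 0.05. Without g1 replicate 2, 7 shares had an adjusted p at most 0.05, and without g1 replicate 1 there were 4. The smallest p that 5 against 5 can give is 0.00794. Over 20 shares, even a complete separation could therefore pass only together with several others near that minimum. That no share passed is thus not a sign that the splits were equal. Shares of a family sum to 100% and are not independent, and they are shares of counts at 3′ ends rather than of protein.

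MYL9 made up 28.5 ± 5.14% of the light chain counts in gCtl and 43.0 ± 10.4% in the knockdown libraries (SD, n = 5 each, exact p = 0.0159, adjusted p = 0.0635). TPM1 made up 6.76 ± 1.16% and 9.86 ± 2.84% of the tropomyosin counts (exact p = 0.0317, adjusted p = 0.0705). Among the Ena/VASP proteins the VASP share was 7.76 ± 1.58% and 14.5 ± 4.66% (exact p = 0.0238, adjusted p = 0.0680). The ACTB share of both actins was 18.2 ± 1.85% and 24.0 ± 7.86% (exact p = 0.159, adjusted p = 0.198), and it lay between 15.1 and 21.2% in g1 and at 35.0 and 28.8% in g2. The ARPC1A share of its pair was 15.2 ± 4.36% and 9.80 ± 1.59% (exact p = 0.0397, adjusted p = 0.0794). Further shares are in the plot of family shares, which shows 9 of the 10 families.

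The counts of some members lay on short or non-coding transcripts of the annotation. Of all counts of the members 80.9% were on protein-coding transcripts, with 30 members at 90% or more and 11 under 50%. ACTB was at 1.98%, because 77.4% of its counts were assigned to ACTB-013, a processed transcript of 715 bases that ends 4 bases before the coding 3′ end. ARPC1B was at 0.321%, with 90.3% on ARPC1B-022, which ends 13 bases before the coding 3′ end. Reads at a shared 3′ end can be divided among such transcripts, so sums per gene were tested. With protein-coding transcripts alone, an alternative chosen after seeing the data, 48 members were tested, of which 7 were called lower and 5 higher (against 10.2 and 7.24% of all genes). ARPC1B, which had 0 to 3 counts per library on such transcripts, FLNA and CSRP1 were not tested. ARPC1A was no longer called lower, TES and VASP no longer higher, and CTTN was added to the lower calls.

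Across the 51 members the log2 fold change of the pooled comparison had a Spearman correlation of 0.32 with the mean annotated length of the transcripts that held the counts, and 0.23 across all 11640 genes. Genes share libraries and are not independent replicates. Members called lower had a median length of 1674 bases and those called higher one of 2762 bases, against 2109 bases over the members and 2791 over all genes. The part of length in the calls was not tested.

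Other genes of the same machinery were taken from 3 lists. Of 51 tested regulators of actin outside the members, 4 were called lower (7.84%) and 9 higher (17.6%) in the pooled comparison, against the 11.0 and 8.14% of all genes, with a median log2 fold change of 0.12. The 3 with the smallest p were COTL1, a cofilin-like actin binder, which fell 3.52-fold (82.9 ± 19.7 to 23.5 ± 7.96 CPM, adjusted p = 0.000132), the formin DAAM1, which rose 1.86-fold (61.1 ± 7.55 to 114 ± 7.28 CPM, adjusted p = 0.000262), and SPTBN1, a spectrin of the membrane skeleton, which rose 2.04-fold (658 ± 114 to 1343 ± 237 CPM, adjusted p = 0.000592). In each of these 3 genes the groups did not overlap.

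Of 39 other tested focal adhesion genes, 4 were called lower (10.3%) and 5 higher (12.8%), against 11.0 and 8.14% of all genes, with a median of 0.01. TRIP6, a relative of zyxin, fell 3.12-fold, from 16.4 ± 2.14 to 5.24 ± 0.751 CPM (adjusted p = 9.19e-05). FYN, a kinase of the Src family, rose 6.30-fold from 0.675 ± 0.436 to 4.56 ± 2.96 CPM (adjusted p = 0.00276), with 18 counts summed in gCtl and 142 summed in the knockdown libraries. FYN stayed at or below 1.23 CPM in gCtl, so it passed the filter on level only through knockdown libraries. Its rise is therefore a description, since a fall of such a gene could not have been tested.

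SRF, its coactivators and further cytoskeletal targets made up the third list. Of its 15 tested genes, 3 were called lower (20.0%) and 2 higher (13.3%), against 11.0 and 8.14% of all genes, with a median of 0.01. In so short a list these shares rest on few calls. SRF itself fell 2.27-fold, from 74.3 ± 10.8 to 32.7 ± 12.1 CPM (adjusted p = 0.00155). Its lowest gCtl library stood at 59.98 CPM and its highest knockdown library at 51.7 CPM, so the groups did not overlap. TAGLN, the smooth muscle relative of TAGLN2, rose 5.91-fold from 1.17 ± 0.584 to 6.74 ± 3.48 CPM (adjusted p = 0.00219), with 29 and 228 counts over the groups. TAGLN stayed at or below 1.89 RPM in gCtl and passed the filter on level only through knockdown libraries, so its rise is a description too. CNN3, a calponin, fell 1.63-fold (adjusted p = 0.00807).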

How the data were processed

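10 Lexogen QuantSeq libraries of Caco-2 cells, which read polyadenylated RNA near its 3′ end, were used. The authors pseudoaligned the reads to GENCODE transcripts with Kallisto and deposited the estimated counts of 199169 transcripts per library, neither normalized nor summed per gene. Counts were summed here per gene and rounded, and protein-coding genes above 3 RPM in at least 20% of the libraries (11640 of 60554) were fitted with edgeR 4.0.16 in R 4.3.3 (TMM, glmQLFit, glmQLFTest). Knockdown against gCtl came from a fit of 2 groups, and each guide from a fit of 3 groups. SE is the log2 fold change divided by the root of F. Counts per library set the precision, and 1 count corresponds to 0.115 to 0.260 RPM. In all 14 pairs of libraries of a group the counts differed by more than sampling noise (chi-square over degrees of freedom 4.29 to 26.1). Shares of counts within families were tested by exact permutation over the libraries (two-sided).

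The members and gene lists were chosen with earlier results of these data known. Values in every library are given for members called in the pooled comparison, for ACTB, and for CFL1 and PFN1, which were added after their values were seen. The other members are given by role, and from each further list the 3 called genes with the smallest p. Gene positions are from GENCODE 29 (GRCh38) and promoters from RefSeq (GRCh38.p14). Alternatives were DESeq2 1.42.0, limma 3.58.1 on log2(RPM + 1), other scalings, filters and groupings, no fold minimum, a test against a fold of 1.5, pseudogenes added, each library left out and, chosen after seeing the data, protein-coding transcripts alone. The fits were tested on simulated data. Some results on the shares and lists are not reported here.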

Additional observations from a re-analysis of the deposited data

Results flagged for a closer look

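In the group of 5 gCtl libraries, 1 library stood far from the rest in 4 of 68 values examined, a criterion that chance meets in about 1 of 20. ARPC1B was low in gCtl replicate 3, at 72.0 CPM, and so was RAC1, at 398 CPM. In gCtl replicate 5, MYL9 held 37.3% of the light chain counts and MYL12B held 21.1%. The ARPC1B value of replicate 3 lies nearer to the knockdown libraries than the other controls do.

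The guides differed in CFL1, with a log2 fold change of 0.77 of g2 against g1 that passed the test of that difference. Both g2 libraries exceeded all others in CFL1, and the call was lost without any 1 of gCtl replicate 4, g1 replicates 1 and 2, and g2 replicate 2, and also with library totals, limma, a fit on these 2 groups alone or a test against a fold of 1.5.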

How the results depend on the processing

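No paired analysis was possible because the labels carry no replicate numbers. Of the 15 calls in the comparison of knockdown with gCtl, 11 held when each of the 10 libraries was left out in turn, and ZYX, ARPC3, ACTR2 and MYL9 were each lost without 1 or more of them. With protein-coding transcripts alone the log2 difference reversed for ACTB (to 1.62, not called) and VASP (to -0.70, not called), where few counts lie on such transcripts. The cause of the other changes below was not tested. A test against a fold of 1.5 asks for more than an estimate past that fold. It called 1 member lower and 1 higher in the pooled comparison, 4 and 0 with g1, 0 and 3 with g2, and 0 higher in g2 than in g1. Over all 11640 genes that test called 330 lower and 158 higher in the pooled comparison and 329 and 177 with g1. It called 517 and 285 of them with g2, and 22 higher in g2 than in g1. Without a fold minimum 11 members were called higher in the pooled comparison and 11 with g1, against 1267 and 1055 of all 11640 genes. With limma on log2(RPM + 1) the members called higher were 4 in the pooled comparison, 3 with g1 and 6 with g2 (against 5.42, 5.29 and 5.67% of all genes). Lower calls with g2 numbered 9 (against 18.2%). For g2 against g1 limma gave 1 lower and 0 higher, against 660 and 119 of all 11640 genes. With library totals g2 gave 10 lower and 7 higher (against 17.7 and 6.44% of all genes). For g2 against g1 library totals gave 1 lower and 0 higher, against 630 and 125 of all 11640 genes. Without a filter on level 3 members were higher in g2 than in g1 (against 244 of 16892 genes). In a fit on these 2 groups 0 were (against 57 of 11640 genes). Protein-coding transcripts alone gave 4 higher with g1 and 3 lower with g2, against 603 and 1114 of 10268 genes. With 1 library left out at a time, the pooled comparison called 6 to 10 lower and 5 to 11 higher, and g1 called 6 to 13 lower and 2 to 10 higher. In the g1 fits with 1 g2 library left, that library was assumed to vary like the other groups. With both g2 libraries kept, g2 called 2 to 8 lower and 9 to 13 higher, and g2 against g1 called 0 lower and 0 to 4 higher. Over all genes the same fits called 998 to 1451 lower and 699 to 1017 higher in the pooled comparison. With g1 they called 762 to 1396 lower and 487 to 866 higher. With both g2 libraries kept, they called 1272 to 1632 lower and 1002 to 1305 higher with g2. For g2 against g1 those fits called 186 to 417 lower and 79 to 249 higher. The family shares with an adjusted p at most 0.05, of which there were 0 in all libraries, numbered 0 to 7, with 7 without g1 replicate 2 and 4 without g1 replicate 1. Depth limits ZYX, PXN, ARPC1A, TAGLN2, PFN1 and RHOB, which stand at few CPM.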
